A study of Homo sapiens with 18 samples.

Results

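SH2D5, ARSI, CDCP1, ABL2 and STX3 are 5 of the 26485 genes listed in the RNA-seq tables of PANC-1 cells, and they were selected on their measured rise with 800 nM C16 against DMSO. PANC-1 is an established cell line from a human pancreatic ductal carcinoma. The cells received either an siRNA (control siRNA or 1 of a pair against PKR, named PKR siRNA 1 and 2) or a solution (DMSO, or C16 at 400 nM or 800 nM), and all RNA was taken at 72 h. Each of the 6 groups had 3 libraries, so that the genes were followed in 18 libraries. PKR, the product of EIF2AK2, is a kinase that is activated by double-stranded RNA and phosphorylates the translation factor eIF2α. An siRNA lowers the mRNA that it matches, whereas C16 is a chemical inhibitor of the PKR kinase, and DMSO is its solvent. No group combined an siRNA with C16. The sample titles mark all libraries of the siRNA arm as run 1 and all those of the C16 arm as run 2, without saying what a run is. The arms were normalized in a table each. Effects of the run and of the arm thus cannot be told apart, and levels were compared only within a table.

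The 5 genes act at the cell surface, in signalling and in secretion. SH2D5 is an adaptor with an SH2 domain that binds BCR, a GTPase-activating protein for RAC1. CDCP1 is a transmembrane glycoprotein that SRC family kinases phosphorylate on tyrosine and that then docks the kinase PKCδ, and it is known for its part in the detachment and spread of carcinoma cells. ABL2 is a non-receptor tyrosine kinase that binds actin and acts in cell protrusion and adhesion. STX3 is a syntaxin, a membrane-bound SNARE that pairs with SNAP23 and vesicle SNAREs to fuse vesicles with the apical membrane of epithelial cells. ARSI is a member of the sulfatase family, enzymes that remove sulfate groups and that need activation by SUMF1.

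In the tables (hg38), SH2D5 (ENSG00000189410) spans bases 20719732 to 20732640 of chromosome 1 (minus strand) with 10 exon intervals, and ABL2 (ENSG00000143322) spans 179099327 to 179229684 on the same strand with 14. ARSI (ENSG00000183876) spans bases 150296346 to 150302962 of chromosome 5 (minus strand) with 2 exon intervals. CDCP1 (ENSG00000163814) spans bases 45082274 to 45146422 of chromosome 3 (minus strand) with 9. STX3 (ENSG00000166900) spans bases 59755059 to 59805882 of chromosome 11 (plus strand) with 11. None of the 5 shared exon bases with another listed gene. For 4 of the 5 genes, RefSeq on GRCh38.p14 gave a promoter window of 250 bases before to 50 bases after the start site. Only the first window listed for each gene was searched. These windows are shown because the genes moved together with C16, and capitals mark the matches to the motifs searched on both strands.

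ARSI, chr5:150302856-150303155, minus strand: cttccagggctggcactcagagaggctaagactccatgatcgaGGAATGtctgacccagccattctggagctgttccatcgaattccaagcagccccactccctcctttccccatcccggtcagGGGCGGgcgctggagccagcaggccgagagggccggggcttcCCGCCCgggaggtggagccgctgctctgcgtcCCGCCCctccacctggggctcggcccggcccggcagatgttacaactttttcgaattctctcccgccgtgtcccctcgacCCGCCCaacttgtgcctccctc
CDCP1, chr3:45146329-45146628, minus strand: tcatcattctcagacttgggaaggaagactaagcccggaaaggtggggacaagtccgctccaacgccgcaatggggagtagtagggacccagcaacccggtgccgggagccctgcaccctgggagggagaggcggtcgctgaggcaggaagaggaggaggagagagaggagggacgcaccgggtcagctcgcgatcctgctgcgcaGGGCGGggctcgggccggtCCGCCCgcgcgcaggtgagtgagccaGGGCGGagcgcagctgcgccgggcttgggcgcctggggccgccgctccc
ABL2, chr1:179143027-179143326, minus strand: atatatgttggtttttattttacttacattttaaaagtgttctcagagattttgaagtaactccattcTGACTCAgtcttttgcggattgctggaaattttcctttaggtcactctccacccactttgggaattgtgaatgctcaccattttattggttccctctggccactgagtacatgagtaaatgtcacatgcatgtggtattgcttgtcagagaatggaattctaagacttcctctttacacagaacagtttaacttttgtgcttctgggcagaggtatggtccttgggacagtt
STX3, chr11:59755126-59755425, plus strand: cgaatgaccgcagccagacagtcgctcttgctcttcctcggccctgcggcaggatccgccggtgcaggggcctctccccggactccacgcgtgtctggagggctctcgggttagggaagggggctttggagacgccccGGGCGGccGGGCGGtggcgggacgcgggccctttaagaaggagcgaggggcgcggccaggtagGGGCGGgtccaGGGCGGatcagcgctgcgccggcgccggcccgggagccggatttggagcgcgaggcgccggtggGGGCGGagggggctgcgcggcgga

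The motifs were AP-1 (TGANTCA), the cAMP response element (TGACGTCA), the TEAD motif (GGAATG), the GC box (GGGCGG), the TATA box (TATAAA) and the E-box (CACGTG). None of the 6 was in all 4 windows. The GC box was found in the windows of ARSI (4 matches), CDCP1 (3 matches) and STX3 (5 matches), and it was in 44.95% of all 35116 RefSeq promoter windows. The AP-1 motif was found in ABL2 alone among the 4, as TGACTCA 182 bases before the start site, against 7.709% of all windows. The TEAD motif was found in ARSI alone, 207 bases before the start site, against 14.03% of all windows. The cAMP response element, the TATA box and the E-box, in 1.848%, 11.53% and 7.256% of all windows, had no match. The GC content was 66% in ARSI, 70.33% in CDCP1, 75.33% in STX3 and 39% in ABL2, against a median of 58.67%. The ABL2 window belongs to a start site 86608 bases downstream of the first base of the gene in the tables, whereas the start sites of ARSI, CDCP1 and STX3 lay within 57, 44 and 317 bases of it. Motif matches are descriptions of these letters and not sites of binding.

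The values are normalized counts, reads on a gene divided by a factor for each library, and are not per length. The depth was 1512940 to 1873906 reads on genes per library in the siRNA arm and 894145 to 1474308 in the C16 arm. The targeted gene, EIF2AK2, averaged 97.4 ± 5.21 normalized counts in the control siRNA group (SD, n = 3, as for the values that follow), against 11.1 ± 2.19 for PKR siRNA 1 and 8.65 ± 0.726 for PKR siRNA 2. In the other table it averaged 49.8 ± 4.20 for DMSO, 42.5 ± 3.26 for 400 nM and 49.9 ± 1.38 for 800 nM. The keratins KRT8, KRT18 and KRT19 were high in every library (from 519 normalized counts), whereas the epithelial markers EPCAM and CDH1 stood between 9.07 and 120. Of 8 markers of other cell types, PTPRC, COL1A2 and DCN had 0 reads in all libraries, PECAM1, VWF and DES had at most 1 read, and CD68 and COL1A1 were present in all, from 21.8 normalized counts. In these bulk samples, fewer cells of a type and less RNA per cell cannot be told apart. Nothing in the sources used here says that the replicates were separate cultures, so SDs measure the spread between libraries and p-values rest on it.

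With C16, all 5 genes were higher in each treated library than in each DMSO library, at both doses. At 800 nM this follows from the way they were chosen. At 400 nM the shared DMSO libraries make it more likely, and the comparison between the doses shares the 800 nM libraries. All C16 values of the 5 genes are therefore a description with no p-value. At 800 nM, the contrast that chose them, all 5 were past the thresholds for an upregulated gene (limma on log2(normalized count + 1), Benjamini-Hochberg adjusted p under 0.05 and over 1.5-fold), which 11.6% of the 9963 genes tested passed upward and 14.1% downward. At 400 nM all 5 were past them too, against 7.08% of genes upward and 5.45% downward, and nothing is read from either count. Treated libraries lay above all DMSO libraries for 26.1% of genes at 800 nM and 20.4% at 400 nM.

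SH2D5, the adaptor, had 18.5, 16.2 and 26.7 normalized counts in the DMSO libraries, 108, 106 and 98.9 with 400 nM C16 and 138, 141 and 152 with 800 nM C16. The 3 groups did not overlap, and the order was DMSO, 400 nM and 800 nM. The log2 fold change against DMSO was 2.33 at 400 nM and 2.78 at 800 nM (standard error 0.15 each), a fold of 5.02 and 6.89 on the scale of normalized count + 1. Between the doses the log2 difference was 0.46 (standard error 0.15).

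STX3, the syntaxin, had 33.0, 39.0 and 37.3 normalized counts with DMSO, 134, 157 and 156 with 400 nM and 177, 180.4 and 195 with 800 nM. Here too the 3 groups did not overlap and lay in the order of the dose. The log2 fold change was 2.00 at 400 nM and 2.30 at 800 nM (standard error 0.12 each), and the difference between the doses was 0.30 (standard error 0.12). All 800 nM libraries lay above all 400 nM libraries for SH2D5 and STX3, as they did for 13.4% of all genes tested.

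ARSI, the sulfatase, had 16.5, 16.2 and 24.4 normalized counts with DMSO, 118, 134 and 120.2 with 400 nM and 123, 138 and 125 with 800 nM. The 2 doses overlapped, and both lay far above DMSO. Its log2 fold change was 2.66 at 400 nM and 2.72 at 800 nM (standard error 0.15 each), with a difference between the doses of 0.05 (standard error 0.15).

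CDCP1, the surface glycoprotein, had 57.3, 61.9 and 76.9 normalized counts with DMSO, 272, 277 and 248 with 400 nM and 304, 227 and 292 with 800 nM. The doses overlapped, since replicate 2 of 800 nM was the lowest of the 6 treated libraries. The log2 fold change was 2.02 at 400 nM and 2.05 at 800 nM (standard error 0.11 each). The difference between the doses was 0.04 (standard error 0.11), and it took a negative sign, down to -0.04, when replicate 1 or 3 of 800 nM or replicate 3 of 400 nM was left out.

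ABL2, the actin-binding kinase, had 52.5, 52.4 and 67.0 normalized counts with DMSO, 195, 208 and 189 with 400 nM and 248, 205 and 219 with 800 nM. Its doses overlapped as well, through replicate 2 of each. The log2 fold change was 1.77 at 400 nM and 1.95 at 800 nM (standard error 0.11 each), and the difference between the doses was 0.18 (standard error 0.11). DMSO replicate 3, the deepest library of the table with 1474308 reads, was the highest DMSO library for SH2D5, ARSI, CDCP1 and ABL2 but not for STX3, and the part of depth in this was not tested. Without any single library, the 800 nM log2 fold changes of the 5 genes ranged from 1.88 for ABL2 to 2.98 for SH2D5.

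**Figure D1:**
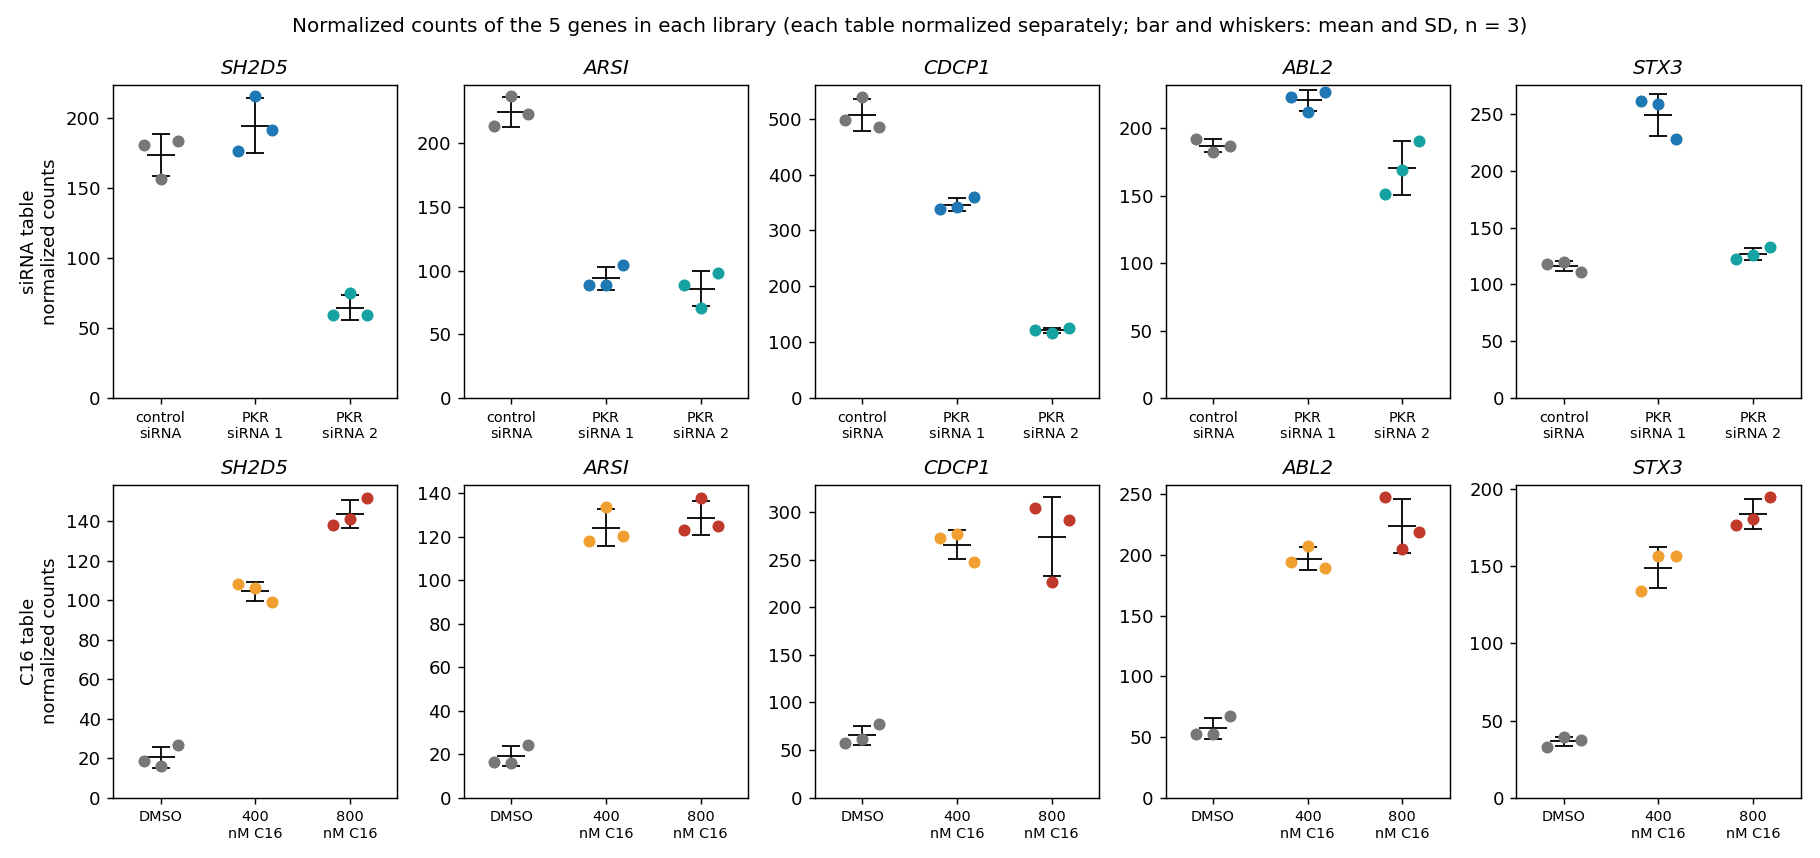
Normalized counts (y axis, linear from 0) of each gene in the 3 libraries of each group (points), with the mean and SD (bar and whiskers, n = 3), in the siRNA table (top) and the C16 table (bottom). All C16 libraries lie above all DMSO libraries for each gene, and only SH2D5 and STX3 separate the 2 doses; in the siRNA table CDCP1 falls from a mean of 507 to 121 with PKR siRNA 2 and STX3 is high with PKR siRNA 1 alone.

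Among the 5323 genes that averaged 50 normalized counts or more in the C16 table, the 5 genes took ranks 1, 3, 4, 6 and 8 of the log2 fold changes at 800 nM, in the order SH2D5, ARSI, STX3, CDCP1 and ABL2. The genes between them were DUSP5, a phosphatase of ERK kinases, at rank 2 with 2.78, FLNC, an actin cross-linker, at rank 5 with 2.24, and COL7A1, the collagen of anchoring fibrils, at rank 7 with 2.05. PNP, a purine phosphorylase, followed ABL2 at rank 9 with 1.82 and RCAN1, a regulator of calcineurin, at rank 10 with 1.77. SH2D5, DUSP5 and ARSI differed from each other by less than their standard errors. So did STX3 and FLNC, then CDCP1, COL7A1 and ABL2, and then PNP and RCAN1. At 400 nM the ranks were 1 for ARSI, 3 for SH2D5, 6 for CDCP1, 7 for STX3 and 10 for ABL2. SH2D5, STX3 and ABL2 thus stood higher in the order at 800 nM than at 400 nM, ARSI lower and CDCP1 at the same rank. The log2 fold change of ARSI itself did not fall, at 2.66 with 400 nM and 2.72 with 800 nM.

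**Figure D2:**
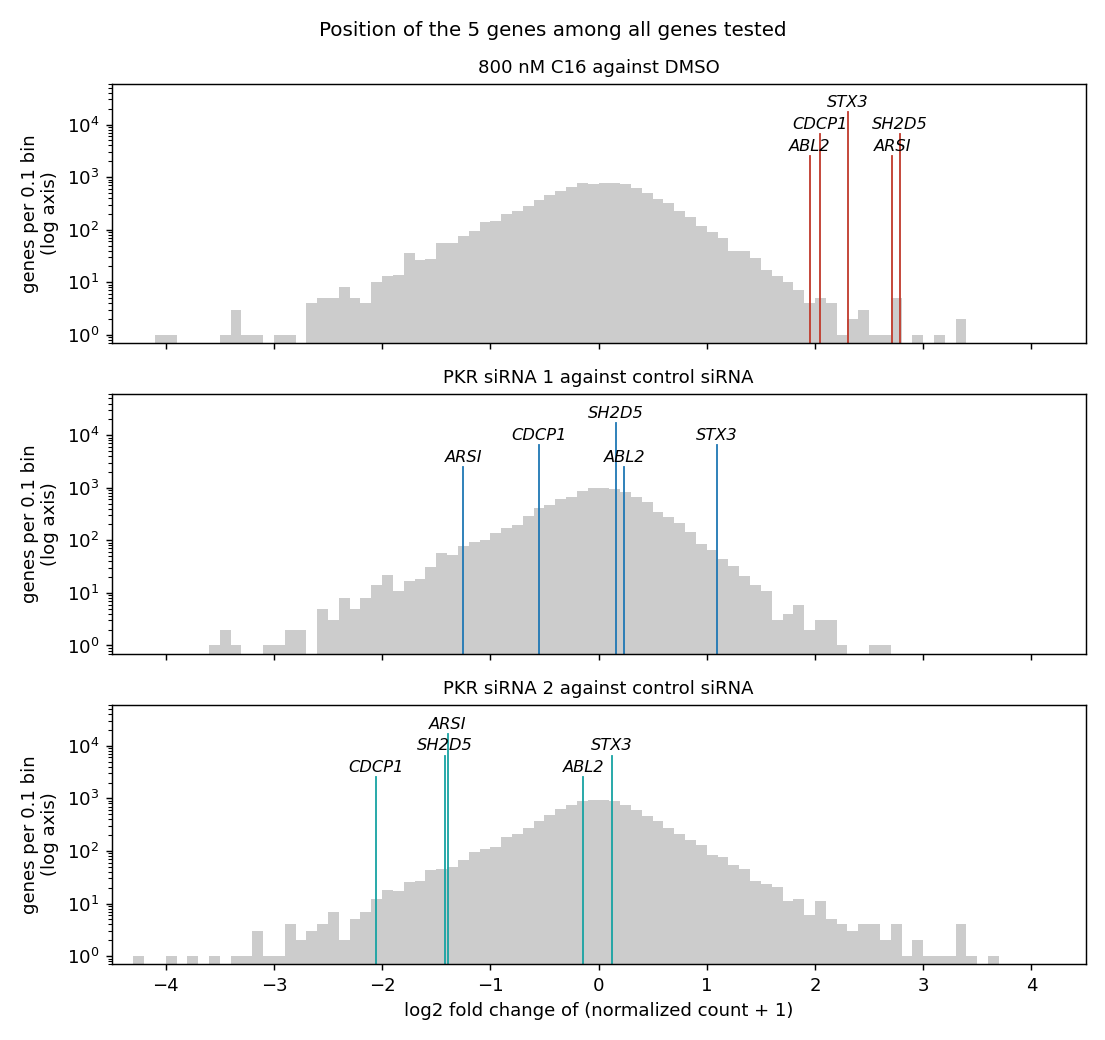
Log2 fold changes (x axis) of all genes tested, as the number of genes per bin of 0.1 (y axis, log scale), for 800 nM C16, PKR siRNA 1 and PKR siRNA 2, with the 5 genes marked by lines. The genes lie together in the upper tail with C16, where they were chosen, and spread from -1.25 to 1.09 with PKR siRNA 1 and from -2.06 to 0.13 with PKR siRNA 2.

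Knockdown of PKR did not move the 5 genes as 1 group. The measured rise that chose the genes used none of these libraries, so each gene was tested, although the genes were picked with earlier results of both tables known. With PKR siRNA 1, STX3 was upregulated and ARSI downregulated, and the other 3 genes did not pass both thresholds, against 8.53% of the 10593 genes tested that passed upward and 12.6% downward. With PKR siRNA 2, SH2D5, ARSI and CDCP1 were downregulated and 0 of the 5 genes upregulated, against 12.8% of genes downward and 10.8% upward. The counts of libraries without overlap were, with PKR siRNA 1, 2 genes above control siRNA and 2 below (24.5% and 27.2% of all genes), and with PKR siRNA 2, 1 above and 3 below (25.9% and 28.4%). The median log2 fold change of the 5 genes was 0.16 with PKR siRNA 1 and -1.39 with PKR siRNA 2, beside -0.01 over all genes tested in each.

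The control siRNA libraries held 497, 539 and 485 normalized counts of CDCP1. Those of PKR siRNA 1 held 338, 342 and 359, and those of PKR siRNA 2 held 121, 117 and 125. The 3 groups did not overlap, and PKR siRNA 2 was the lowest. CDCP1 fell by 2.06 on the log2 scale with PKR siRNA 2 (standard error 0.08, limma adjusted p = 3.12e-37), 4.16-fold lower, which was rank 52 among the falls of 10593 genes. PKR siRNA 1 gave a log2 fold change of -0.55 (standard error 0.08, limma adjusted p = 1.03e-08), 1.46-fold lower, which passed the adjusted p but not the 1.5-fold threshold. All 6 knockdown libraries were below all 3 controls, for which a two-sided exact permutation test gave p = 0.1 for each siRNA, the lowest possible with 3 against 3.

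The control siRNA libraries held 214, 237 and 223 normalized counts of ARSI. Those of PKR siRNA 1 held 88.9, 88.9 and 104, and those of PKR siRNA 2 held 88.5, 70.8 and 97.8. It was below control in all 6 knockdown libraries, and the 2 siRNAs overlapped. ARSI fell by 1.25 on the log2 scale with PKR siRNA 1 (standard error 0.11, limma adjusted p = 8.27e-16) and fell by 1.39 with PKR siRNA 2 (standard error 0.11, limma adjusted p = 4.61e-18). Of the 5 genes, ARSI alone passed both thresholds with both siRNAs. The share of all genes that did so was not computed, so nothing is read from this count.

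The control siRNA libraries held 181, 157 and 184 normalized counts of SH2D5. Those of PKR siRNA 1 held 177, 216 and 192, and those of PKR siRNA 2 held 59.7, 75.1 and 59.2. PKR siRNA 1 overlapped control siRNA, whereas PKR siRNA 2 lay below both. SH2D5 fell by 1.42 on the log2 scale with PKR siRNA 2 (standard error 0.11, limma adjusted p = 4.17e-19). PKR siRNA 1 gave it a log2 fold change of 0.16 (95% confidence interval -0.06 to 0.38, limma adjusted p = 0.233), and the exact permutation test gave p = 0.3.

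The control siRNA libraries held 118, 119 and 111 normalized counts of STX3. Those of PKR siRNA 1 held 261, 258 and 228, and those of PKR siRNA 2 held 122, 125 and 133. All PKR siRNA 1 libraries were far above the rest. STX3 rose by 1.09 on the log2 scale with PKR siRNA 1 (standard error 0.10, limma adjusted p = 6.17e-16), 2.13-fold. The 3 PKR siRNA 2 libraries also lay above the controls, but by a log2 fold change of 0.13 (95% confidence interval -0.07 to 0.32, limma adjusted p = 0.300).

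The control siRNA libraries held 192, 183 and 187 normalized counts of ABL2. Those of PKR siRNA 1 held 223, 212 and 227, and those of PKR siRNA 2 held 151, 169 and 191. PKR siRNA 1 lay above control siRNA, and PKR siRNA 2 overlapped it. PKR siRNA 1 gave a log2 fold change of 0.24 (95% confidence interval 0.05 to 0.42, limma adjusted p = 0.0288), short of 1.5-fold. That adjusted p rose above 0.05 with DESeq2 (0.0880), and with limma (0.0627 to 0.0846) without replicate 1 or 3 of PKR siRNA 1 or replicate 2 or 3 of control siRNA. For PKR siRNA 2 it was -0.14 (95% confidence interval -0.32 to 0.04, limma adjusted p = 0.211; exact permutation test, p = 0.3).

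The 2 siRNAs were then compared with each other. SH2D5, CDCP1 and STX3 were lower with PKR siRNA 2 than with PKR siRNA 1 past both thresholds, against 15.3% of genes that were lower and 16.4% that were higher. The log2 differences were -1.58 for SH2D5 (limma adjusted p = 1.02e-21), -1.51 for CDCP1 (limma adjusted p = 6.26e-29) and -0.97 for STX3 (limma adjusted p = 5.25e-14). ABL2 differed by -0.38 (limma adjusted p = 0.000309), under 1.5-fold. ARSI differed by -0.14 (95% confidence interval -0.37 to 0.09, limma adjusted p = 0.295), and by -0.010 without replicate 2 and -0.24 without replicate 3 of PKR siRNA 2. For 4 of the 5 genes all PKR siRNA 2 libraries lay below all PKR siRNA 1 libraries, as for 30.9% of genes. EIF2AK2 itself differed by -0.31 between the siRNAs (standard error 0.25, limma adjusted p = 0.282). Its knockdown libraries held only 7.96 to 13.6 normalized counts, so this does not show equal knockdown.

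**Figure D3:**
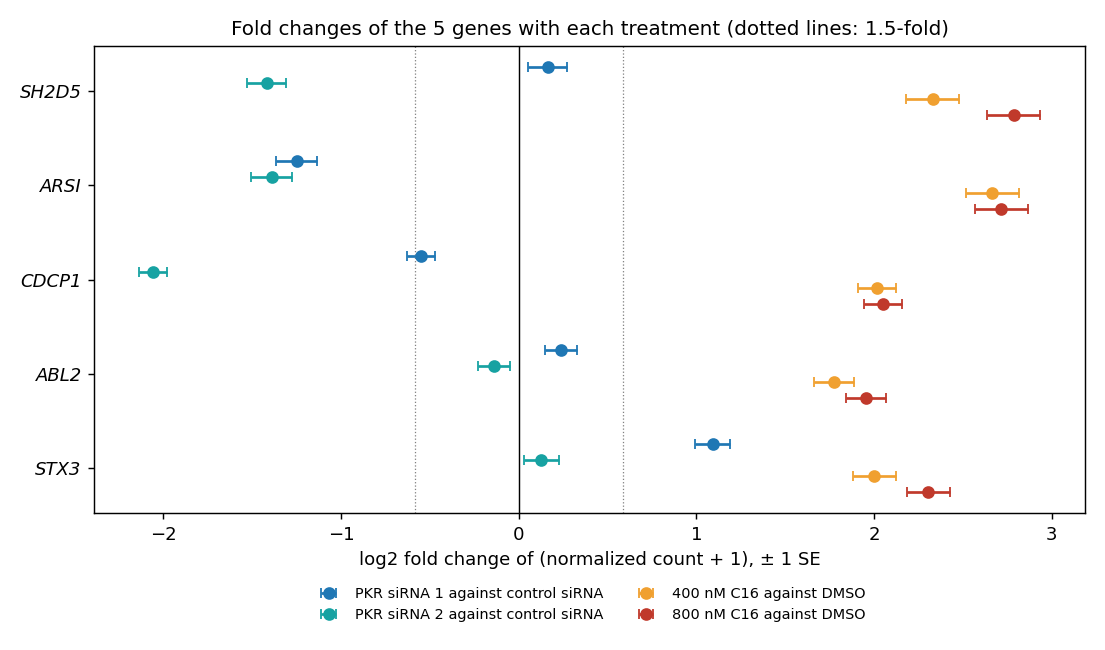
Log2 fold change (x axis, points, with whiskers of 1 standard error) of each gene with the 2 siRNAs against control siRNA and the 2 C16 doses against DMSO, with dotted lines at 1.5-fold. The C16 values run from 1.77 to 2.78; the PKR siRNA values lie on both sides of 0, with ARSI low with both siRNAs, SH2D5 low with PKR siRNA 2 alone and STX3 high with PKR siRNA 1 alone.

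Genes that work with the 5 were followed as 5 lists of 88 genes, of which 72 were tested in each table. These lists hold partners by known function, but they were written with earlier results of these data known. In all, 2 rose and 12 fell with PKR siRNA 1, 5 rose and 13 fell with PKR siRNA 2, 5 rose and 2 fell with 400 nM C16, and 5 rose and 10 fell with 800 nM C16, by the same thresholds. The shares that rose were 2.78%, 6.94%, 6.94% and 6.94% of the 72, beside 8.53%, 10.8%, 7.08% and 11.6% of all genes tested, and the shares that fell were 16.7%, 18.1%, 2.78% and 13.9%, beside 12.6%, 12.8%, 5.45% and 14.1%. These are descriptions, and no list was tested as a set. Their median log2 fold change was between -0.11 and 0.01 in these 4 comparisons. All adjusted p-values below are from limma with Benjamini-Hochberg adjustment over all genes tested.

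Among 10 tested SRC family kinases and other partners of CDCP1, 2 rose and 1 fell at 800 nM C16 (median 0.35), 20% and 10% of them, beside 11.6% and 14.1% of all genes. LYN, a SRC family kinase, rose by 0.84 on the log2 scale (adjusted p = 4.16e-06) and CSK, the kinase that holds SRC family kinases inactive, by 0.62 (adjusted p = 2.66e-05). ERBB2, a receptor tyrosine kinase, fell by 1.11 at 800 nM (adjusted p = 1.79e-09) and by 0.62 at 400 nM (adjusted p = 0.000479), whereas EGFR rose by 0.65 at 400 nM (adjusted p = 5.25e-07). With PKR siRNA 2, which lowered CDCP1 more than PKR siRNA 1 did, ERBB2 rose by 0.86 (adjusted p = 3.64e-07) and the SRC family kinase YES1 by 0.82 (adjusted p = 2.65e-13). SRC fell by 0.59 with PKR siRNA 1 (adjusted p = 0.00280) and by 0.60 with PKR siRNA 2 (adjusted p = 0.00222), and PRKCD, which encodes PKCδ, fell by 0.67 (adjusted p = 0.00488) and 0.66 (adjusted p = 0.00564). The surface metalloprotease ADAM9 rose by 0.93 with PKR siRNA 1 (adjusted p = 1.34e-15).

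Of the 12 partners of ABL kinases, CBL, a ubiquitin ligase, was the single gene that rose with C16, by 0.70 at 400 nM (adjusted p = 9.95e-10) and 0.68 at 800 nM (adjusted p = 8.89e-10), and 0 fell. The 1 gene is 8.33% of the list, beside 7.08% of all genes that rose at 400 nM and 11.6% at 800 nM. Of all genes, 5.45% and 14.1% fell at these doses. With PKR siRNA 1, 0 of the 12 passed the thresholds in either direction, beside 8.53% of all genes upward and 12.6% downward. PXN, the focal adhesion protein paxillin, fell by 0.82 with PKR siRNA 2 (adjusted p = 9.65e-24). CTTN, the actin-binding protein cortactin, was lower with PKR siRNA 2 than with PKR siRNA 1 by a log2 difference of -0.94 (adjusted p = 2.69e-29).

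For the BCR, RAC and SH2D family list of SH2D5, 12 genes were tested with C16 and 13 with the siRNAs. PAK1, a kinase that RAC1 activates, rose by 0.68 at 400 nM (adjusted p = 1.75e-05) and 0.88 at 800 nM (adjusted p = 2.64e-08), and no other gene of the list passed the thresholds at either dose. The 1 gene is 8.33% of the 12, beside 7.08% of all genes that rose at 400 nM and 11.6% at 800 nM. Of all genes, 5.45% and 14.1% fell at these doses. PAK1 fell by 0.78 with PKR siRNA 2 (adjusted p = 4.16e-07), and its log2 fold change with PKR siRNA 1 was -0.52 (adjusted p = 0.000576, under 1.5-fold). RAC1 itself rose by 1.20 with PKR siRNA 1 (adjusted p = 1.04e-30) and by 0.85 with PKR siRNA 2 (adjusted p = 2.08e-22). The exchange factors VAV2 and DOCK1 fell by 0.65 and 0.76 with PKR siRNA 1 (adjusted p = 9.03e-06 and 4.49e-12), and ECT2 fell by 0.78 with PKR siRNA 2 (adjusted p = 1.26e-13). The related adaptor SH2D4A fell by 0.63 with PKR siRNA 2 (adjusted p = 0.0109).

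Among 26 tested genes of the SNARE machinery, 0 rose at either C16 dose, and 4 fell at 800 nM (median -0.18). Of all genes, 7.08% rose at 400 nM and 11.6% at 800 nM. The 4 that fell are 15.4% of the list, close to the 14.1% of all genes that fell. STX5, a syntaxin of the Golgi, fell by 0.93 (adjusted p = 0.000435) and STXBP2, a protein that binds STX3 and assists fusion, by 0.66 (adjusted p = 0.000987). With PKR siRNA 1, in which STX3 rose, 5 genes of this list fell and 0 rose. Those that fell are 19.2% of the list, beside 12.6% of all genes, and 8.53% of all genes rose. SNAP23, the partner of STX3 at the plasma membrane, fell by 1.45 (adjusted p = 3.62e-14), and the vesicle SNAREs VAMP3 and VAMP8 fell by 1.31 (adjusted p = 2.63e-18) and 0.76 (adjusted p = 1.25e-07). With PKR siRNA 2, 6 fell and 1 rose, 23.1% and 3.85% of the list, beside 12.8% and 10.8% of all genes. Among the 6, VAMP8 fell by 1.24 (adjusted p = 6.93e-15), STX12 by 1.17 (adjusted p = 5.02e-10), VAMP2 by 1.05 (adjusted p = 8.04e-09) and STXBP2 by 0.80 (adjusted p = 8.19e-06). The 1 that rose was SNAP23, with a log2 fold change of 0.78, which was named after its values were seen. SNAP23 was thus higher with PKR siRNA 2 than with PKR siRNA 1 by 2.22 on the log2 scale (adjusted p = 1.62e-23).

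The sulfatases and their activators fell at 800 nM C16 in 5 of 12 tested genes, and 1 rose (median -0.36). These are 41.7% and 8.33%, beside 14.1% and 11.6% of all genes, given as a description. ARSA, GALNS and SUMF2 fell by 1.28 (adjusted p = 1.28e-06), 0.72 (adjusted p = 3.39e-05) and 0.91 (adjusted p = 1.19e-08), while ARSI was high. ARSA and GALNS are lysosomal sulfatases, and SUMF2 is a relative of the activator SUMF1. At 400 nM 0 fell and 1 rose (8.33% of the list), beside 5.45% and 7.08% of all genes. ARSA was also lower at 800 nM than at 400 nM, by a log2 difference of -0.82 (adjusted p = 0.00518). With the siRNAs, IDS, a lysosomal sulfatase of heparan and dermatan sulfate, fell by 0.65 with PKR siRNA 1 (adjusted p = 1.20e-14) and fell by 1.94 with PKR siRNA 2 (adjusted p = 9.63e-42). ARSB and GALNS fell by 0.94 and 0.68 with PKR siRNA 1 (adjusted p = 6.36e-06 and 7.24e-08), and SUMF1 rose by 0.68 with PKR siRNA 2 (adjusted p = 0.00578).

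**Figure D4:**
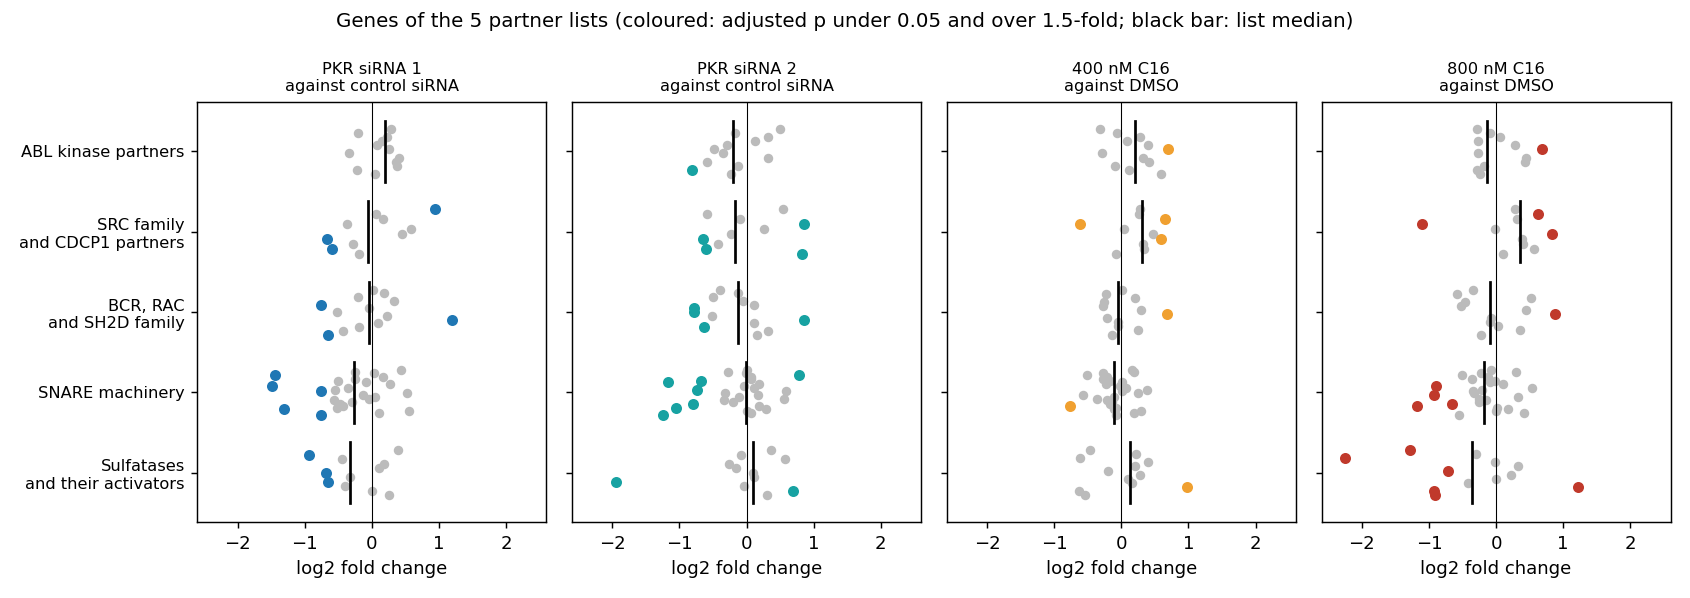
Log2 fold changes (x axis) of the tested genes of the 5 partner lists (rows) in 4 comparisons, with genes past both thresholds in colour, the others in grey and the median of each list as a black bar. At 800 nM C16 the coloured points of the SNARE machinery lie below 0 (4 of 26 genes, a share close to that of all genes), and those of the sulfatases lie below 0 for 5 genes and above 0 for 1.

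The genes whose pattern was most like that of each of the 5 were sought over the 18 libraries, each table centred on its own controls, over 5276 genes that averaged 50 or more in both tables. Pearson correlations are given as descriptions, since the libraries fall into 6 groups that share their controls and C16 sets most of the range. DUSP5 was most like SH2D5 (r = 0.99), with log2 fold changes of -1.63 with PKR siRNA 2, 2.15 with 400 nM and 2.78 with 800 nM, followed by DGKD, a lipid kinase (r = 0.98). COL7A1 was most like CDCP1 (r = 0.99), with -1.72 with PKR siRNA 2 and 2.05 with 800 nM, beside ITGA2, the collagen-binding integrin subunit, with -1.43 and 1.48, and GALNT2, a glycosyltransferase, with -0.57 and 0.47. LYST, UBASH3B and COTL1 were most like ARSI (r = 0.99 each), although their changes were smaller, from 1.10 to 1.36 with 800 nM. FLNC and HMGXB3 were most like ABL2 (r = 0.98 each), and FNIP2, MPP1 and SPAG9 were most like STX3 (r = 0.97 each). FNIP2 showed the pattern of STX3, at 0.64 for PKR siRNA 1 and 1.37 for 800 nM, but -0.09 for PKR siRNA 2. Among the 5 genes themselves, r ran from 0.78 for ARSI and STX3 to 0.97 for SH2D5 and CDCP1. The 5 genes were chosen for their rise with 800 nM C16, so high values here follow in part from that choice.

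**Figure D5:**
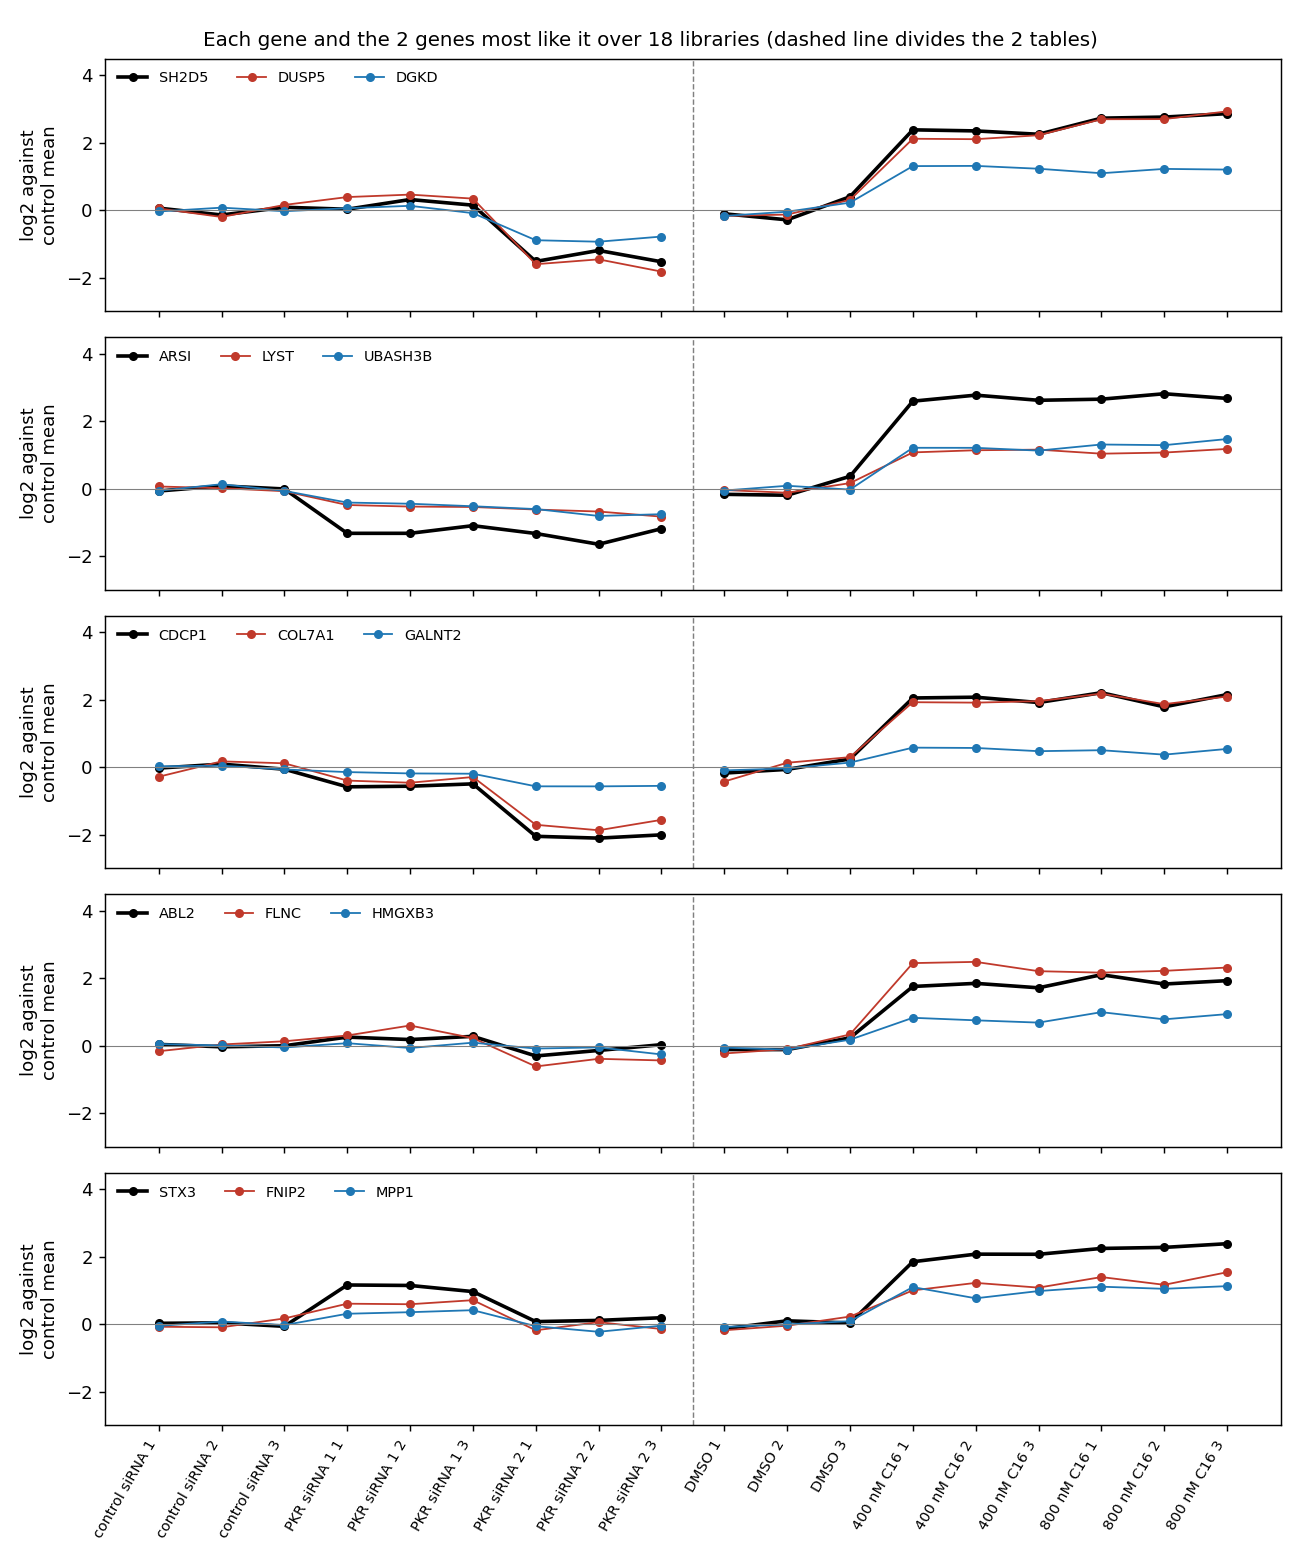
Log2(normalized count + 1) of each of the 5 genes (black) and of the 2 genes most like it (colours) in each library (x axis), relative to the mean of the controls of its table (y axis); a dashed line divides the siRNA and C16 tables. DUSP5 runs close to SH2D5 and COL7A1 close to CDCP1 in both tables, whereas the genes most like ARSI have the same shape with smaller changes.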

How the data were processed

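RNA of PANC-1 cells was measured by poly(A) RNA-seq. The authors used TopHat to map the reads to hg38, featureCounts to assign them to genes and TCC with TMM to normalize them; the annotation is not given in the sources used here. Each deposited value is a normalized signal, the reads on a gene over 1 factor per library. All 9 libraries of a table entered 1 two-sided limma 3.58.1 fit (R 4.3.3, eBayes with a trend) of log2(normalized count + 1), for genes averaging 10 or more, with Benjamini-Hochberg adjustment over all genes tested. This fit draws the spread of each gene towards that of genes with a similar mean. Its standard errors and p-values are thus not those of a single gene's libraries. Calls needed an adjusted p under 0.05 and over 1.5-fold. The value of 1 read could be recovered from the steps between low values, so edgeR 4.0.16 and DESeq2 1.42.0 were run on reads as alternatives. The replicate pairs differed by more than sampling noise (chi-square per degree of freedom from 1.03 to 1.63 in 18 pairs), and none were merged. The largest values were those of DMSO replicate 3 against replicate 1 (1.63) and replicate 2 (1.37), beside 1.08 between DMSO replicates 1 and 2. Columns not assigned to a sample numbered 0. The 5 genes, the partner lists, the motifs and the tests were chosen with earlier results of these data known. Genes named from a list are those past both thresholds, up to 4 per comparison by size, with a table mean of at least 30; of the genes most like each of the 5, up to 3 are named. Some genes that meet these rules are not reported here. The scripts were tested on simulated data.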

Additional observations from a re-analysis of the deposited data

Results flagged for a closer look

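Of the 5 genes, 3 lay on opposite sides of their controls with an siRNA and with 800 nM C16. Each library of the group was below its controls with the siRNA and above them with C16. Of all genes tested, 27.2% lay below control with PKR siRNA 1 and 28.4% with PKR siRNA 2 in this way. With 800 nM C16, where the 5 genes were chosen, 26.1% of all genes lay above DMSO. The share of all genes with both was not computed, so nothing is read from the count. SH2D5 had a log2 fold change of -1.42 for PKR siRNA 2 and of 2.78 for C16. In ARSI, PKR siRNA 1 gave -1.25, PKR siRNA 2 gave -1.39 and C16 gave 2.72. In CDCP1, PKR siRNA 1 gave -0.55, PKR siRNA 2 gave -2.06 and C16 gave 2.05. The difference between the 2 kinds of treatment was not tested, because the tables were normalized separately and their libraries carry different run labels.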

How the results depend on the processing

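Alternatives changed the pseudocount (0.5 or 5), the filter (none, or a minimum mean of 30), the scaling, the groups in the fit, the replicate block, the tool (edgeR or DESeq2 on reads) and the libraries (each left out in turn). Of 225 settings of the siRNA fold changes of the 5 genes, 225 kept the call by both thresholds together, and the direction where a gene was called. The direction of fold changes that were not called was not part of this count. The adjusted p alone crossed 0.05 for ABL2 with PKR siRNA 1, up to 0.0880 with DESeq2. Fold changes that were not called moved more with 1 library left out: SH2D5 with PKR siRNA 1 from 0.086 (without its replicate 2) to 0.23, ABL2 with PKR siRNA 2 from -0.22 to -0.057 (without its replicates 3 and 1), and ARSI between the siRNAs from -0.24 to -0.010. CDCP1 with PKR siRNA 1, also not called, ranged from -0.580 to -0.504, and its lower end was just short of 1.5-fold. With a pseudocount of 5 the 800 nM value of STX3 was 2.19 instead of 2.30, by the construction of the scale. The dose difference of CDCP1 ranged from -0.044 to 0.17 with 1 library left out; it was -0.044 and -0.016 without replicates 1 and 3 of 800 nM and -0.014 without replicate 3 of 400 nM. A minimum mean of 30, which tests fewer genes, gave 296 genes down at 400 nM instead of 543, 800 instead of 1403 at 800 nM, and 231 instead of 394 between the doses. DESeq2 gave 51 up and 137 down between the doses instead of 113 and 394, and the cause was not tested.

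Replicate numbers did not pair the libraries (correlations of deviations from -0.034 to 0.057 in the siRNA table and -0.075 to 0.038 in the C16 table; libraries correlated best with their own number in 7 of 18 and 4 of 18 choices). With a replicate block, 15 of 15 tested fold changes kept their call, with CDCP1 at -2.06 with PKR siRNA 2, and 905 genes were up with PKR siRNA 1 instead of 904. Depth limits the DMSO values of SH2D5 and ARSI most, at about 16 to 27 normalized counts.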
